A study of Mus musculus with 12 samples.

Results

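MOF peaks that flanked transcription start sites were examined in visceral white adipose tissue of mice, in 1 list of peaks from Mof+/+ tissue and 1 from Mof+/- tissue. A peak was a flank peak when its nearest edge lay more than 1000 and at most 3000 bp from the nearest annotated transcript start on chromosomes 1 to 19. This held for 2369 of 20291 peaks, of which 2221 of 19579 were in the Mof+/+ list and 148 of 712 in the Mof+/- list. Peaks within 1000 bp of a start are called start-site peaks and peaks beyond 3000 bp distal peaks. The study profiled MOF, histone H3 and input DNA by chromatin immunoprecipitation and sequencing (ChIP-seq), with 2 libraries for each of these in each genotype, to ask which genes MOF occupies in fat and how occupancy differs when 1 copy of its gene is lost. Mof+/+ is the wild type and Mof+/- mice are heterozygous for Mof in the whole body and not in fat alone. Both genotypes were C57BL/6, 8 weeks old and on a standard diet, and the labels name the same MOF antibody for both, though the study's reporting summary lists others. The tissue was whole visceral fat, so fewer cells of a type and less MOF per cell cannot be told apart.

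MOF, also named KAT8, is a lysine acetyltransferase that acetylates histone H4, and as part of the NSL complex it binds at the start sites of widely expressed genes. In the MSL complex it also acts away from start sites, within the bodies of genes. The sequence next to a start site holds the edge of the promoter on its upstream side and, on its downstream side, often the beginning of the first intron, where enhancers of the same gene can lie.

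The windows below show what such regions look like at the strongest peaks and at the genes the study follows. Each is the plus strand of GRCm38 from 100 bp before to 100 bp after the summit, with CpG dinucleotides in capitals, because flank and start-site peaks differed in CpG content, as described below. The first 4 are the strongest flank peak on each side in each list whose window held no untranslated region. Scml4 was tied with Barx1 in the Mof+/+ list and taken by its lower chromosome number. The other 4 are the flank peaks nearest to Mef2c, Ppargc1a, Pparg and Kat8.
Scml4 upstream, Mof+/+ list, chr10:42897355-42897555: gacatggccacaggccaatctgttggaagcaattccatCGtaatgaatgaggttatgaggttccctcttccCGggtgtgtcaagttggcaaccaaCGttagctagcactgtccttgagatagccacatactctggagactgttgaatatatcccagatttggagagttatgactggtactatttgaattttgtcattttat
Kdm6b downstream, Mof+/+ list, chr11:69410964-69411164: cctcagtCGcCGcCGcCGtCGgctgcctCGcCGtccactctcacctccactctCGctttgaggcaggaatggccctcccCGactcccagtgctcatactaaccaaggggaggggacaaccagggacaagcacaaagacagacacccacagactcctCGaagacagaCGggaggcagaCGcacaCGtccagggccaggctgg
Barx1 upstream, Mof+/- list, chr13:48659071-48659271: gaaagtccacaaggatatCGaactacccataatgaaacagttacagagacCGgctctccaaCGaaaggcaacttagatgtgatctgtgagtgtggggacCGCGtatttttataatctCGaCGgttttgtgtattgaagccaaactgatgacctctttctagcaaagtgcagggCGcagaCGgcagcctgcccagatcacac
9530018H14Rik downstream, Mof+/- list, chr6:52254077-52254277: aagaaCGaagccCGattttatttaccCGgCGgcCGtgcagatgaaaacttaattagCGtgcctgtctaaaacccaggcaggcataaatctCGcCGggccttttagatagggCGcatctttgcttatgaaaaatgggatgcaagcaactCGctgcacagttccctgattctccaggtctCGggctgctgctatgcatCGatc
Mef2c downstream, Mof+/+ list, chr13:83532328-83532528: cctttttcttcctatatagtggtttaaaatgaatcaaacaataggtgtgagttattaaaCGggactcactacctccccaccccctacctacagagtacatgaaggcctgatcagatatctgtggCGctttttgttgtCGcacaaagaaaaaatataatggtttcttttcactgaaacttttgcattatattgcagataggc
Ppargc1a downstream, Mof+/+ list, chr5:51552375-51552575: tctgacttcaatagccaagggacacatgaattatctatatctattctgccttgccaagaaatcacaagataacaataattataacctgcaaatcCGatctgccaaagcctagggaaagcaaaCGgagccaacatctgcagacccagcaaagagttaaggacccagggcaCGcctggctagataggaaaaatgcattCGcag
Pparg downstream, Mof+/+ list, chr6:115424574-115424774: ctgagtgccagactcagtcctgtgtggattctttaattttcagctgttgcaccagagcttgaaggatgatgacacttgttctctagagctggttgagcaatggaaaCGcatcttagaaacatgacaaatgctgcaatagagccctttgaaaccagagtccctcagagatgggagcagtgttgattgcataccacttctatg
Kat8 downstream, Mof+/+ list, chr7:127922721-127922921: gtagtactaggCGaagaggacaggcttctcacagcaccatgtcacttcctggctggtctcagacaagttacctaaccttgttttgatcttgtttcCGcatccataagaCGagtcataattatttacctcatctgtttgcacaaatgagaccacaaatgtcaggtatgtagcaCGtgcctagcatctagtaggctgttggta
The windows at Kdm6b, Barx1 and 9530018H14Rik held 13, 9 and 12 CpG, while those at Scml4, Mef2c, Ppargc1a, Pparg and Kat8 held 3, 3, 4, 1 and 4. The 3 CpG-dense windows belong to peaks that overlapped a peak of the other list, and the other 5 to peaks that did not.

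Each genotype was represented by a single list with no values per library, so the spread between animals is unknown and the genotypes were compared without a test. Shares are therefore given with 95% Wilson intervals, which cover counting error only. Peaks were called with MACS2, which compares the fragments over a summit with the local input background. Fold enrichment is the ratio of these 2 numbers after the same constant is added to both. The fragment numbers could be solved from the fold enrichment and the p-value for 19573 of 19579 Mof+/+ and 708 of 712 Mof+/- peaks. Backgrounds started at 3.52 fragments for Mof+/+ and at 2.26 for Mof+/- peaks. The smallest −log10 p was 3.25 among Mof+/+ and 4.72 among Mof+/- peaks. The Mof+/+ list thus reached weaker peaks. Of its 2221 flank peaks, 1196 were at least as strong by p-value as the weakest Mof+/- peak, and absence from the Mof+/- list does not show absence of binding.

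Flank peaks made up 11.3% (10.9 to 11.8) of Mof+/+ peaks and 20.8% (17.97 to 23.92) of Mof+/- peaks. Start-site peaks took the same share of both lists, 55.7% (55.0 to 56.4) and 55.5% (51.8 to 59.1), and distal peaks took 33.0% (32.3 to 33.6) and 23.7% (20.8 to 27.0). Mof+/+ flank peaks were among the weaker peaks of their list. They were 3.58% (2.84 to 4.49) of the strongest 1957 peaks of that list by p-value and 17.1% (15.5 to 18.9) of the weakest 1957. The Mof+/- list showed no such order, with 22.5% (14.4 to 33.5) of its strongest 71 peaks, 15.5% (8.88 to 25.7) of its weakest 71, and intervals that overlap.

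A Mof+/+ flank peak had a median fold enrichment of 3.10 (interquartile range 2.87 to 3.55) over 15 fragments (13 to 17), against 3.76 (3.10 to 4.57) over 18 fragments for start-site peaks. It was also narrower, with a median width of 494 bp (352 to 806) against 740 bp (457 to 1231). Distal peaks had the flank values, a fold enrichment of 3.10 and a width of 501 bp. In strength and width the Mof+/+ flank peaks therefore sat with the distal peaks. For Mof+/- peaks all 3 classes had the same median fold enrichment of 4.29, and the flank peaks, with 14 fragments (13 to 15.5), were 479.5 bp wide (354 to 767) against 433 bp for start-site peaks. Fold enrichment is relative to each genotype's own input, so its levels in the 2 lists are not on one scale.

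**Figure D1:**
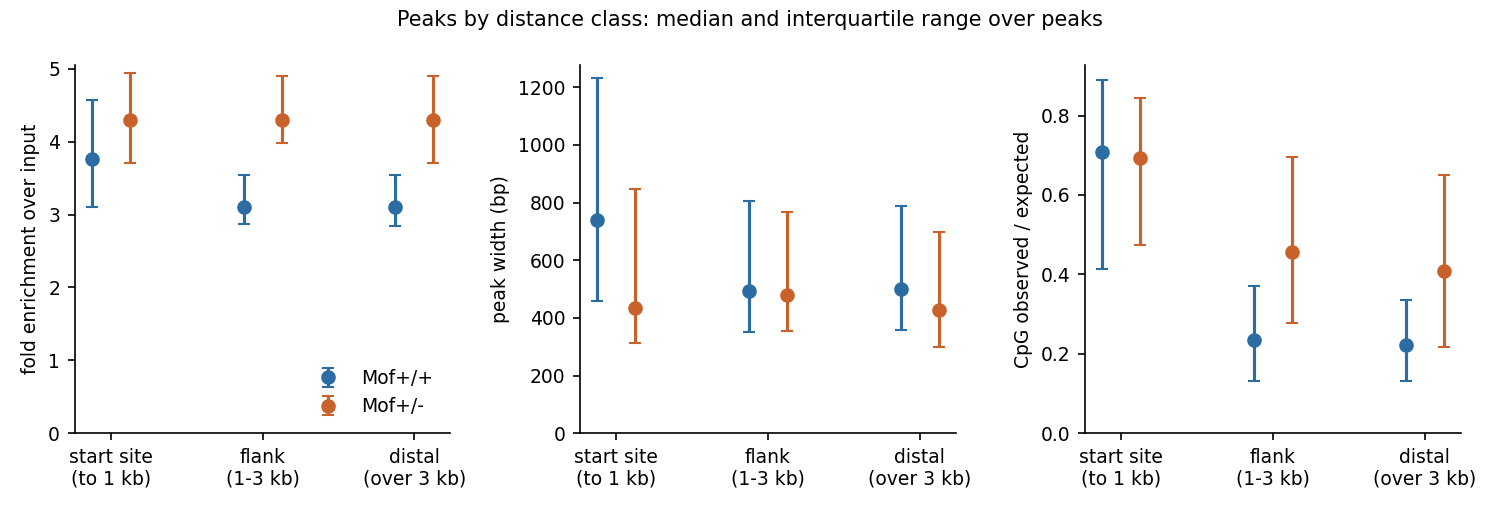
Fold enrichment over input, peak width in bp and CpG observed over expected ratio (vertical axes) of start-site, flank and distal peaks in the Mof+/+ (blue) and Mof+/- (orange) lists. Points are medians and bars are interquartile ranges over peaks, not errors over animals. Mof+/+ flank peaks sit at the distal values in all 3 panels, with median CpG ratios of 0.234 and 0.222 against 0.709 at start sites.

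Downstream peaks outnumbered upstream peaks in both lists. Side was taken from the strand of the nearest start. Of Mof+/+ flank peaks 937 (42.2%, 40.2 to 44.3) were upstream and 1284 downstream, and of Mof+/- flank peaks 56 (37.8%, 30.4 to 45.9) were upstream and 92 downstream. Of the sequence at that distance 48.7% was upstream, and both intervals lie below it. Per Mb of available sequence there were 8.25 upstream and 10.7 downstream Mof+/+ peaks, and 0.493 upstream and 0.770 downstream Mof+/- peaks.

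The upstream share was also taken at other distances. Of peaks that lay within 1000 bp of a start without covering it, 40.7% (39.1 to 42.3) were upstream among Mof+/+ and 44.6% (38.6 to 50.8) among Mof+/- peaks. Between 3000 and 5000 bp the shares were 42.7% (40.0 to 45.3) and 38.8% (26.4 to 52.8). The intervals of the 3 bands overlap in each list, and those of the Mof+/- list outside the flank include the available shares of 49.2 and 48.4%. In single steps of 500 bp the excess was not always present. Within the flank the Mof+/- list had 14 peaks on each side between 2000 and 2500 bp, and from 500 to 1000 bp the Mof+/+ share of 46.2% (42.9 to 49.5) includes the available 49.1%. Mof+/+ density declined with distance on both sides, from 9.36 to 7.44 upstream and from 12.1 to 9.88 downstream peaks per Mb between the first and the last 500 bp of the flank. The 500 bp next to the start held 26.5 upstream and 40.4 downstream.

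**Figure D2:**
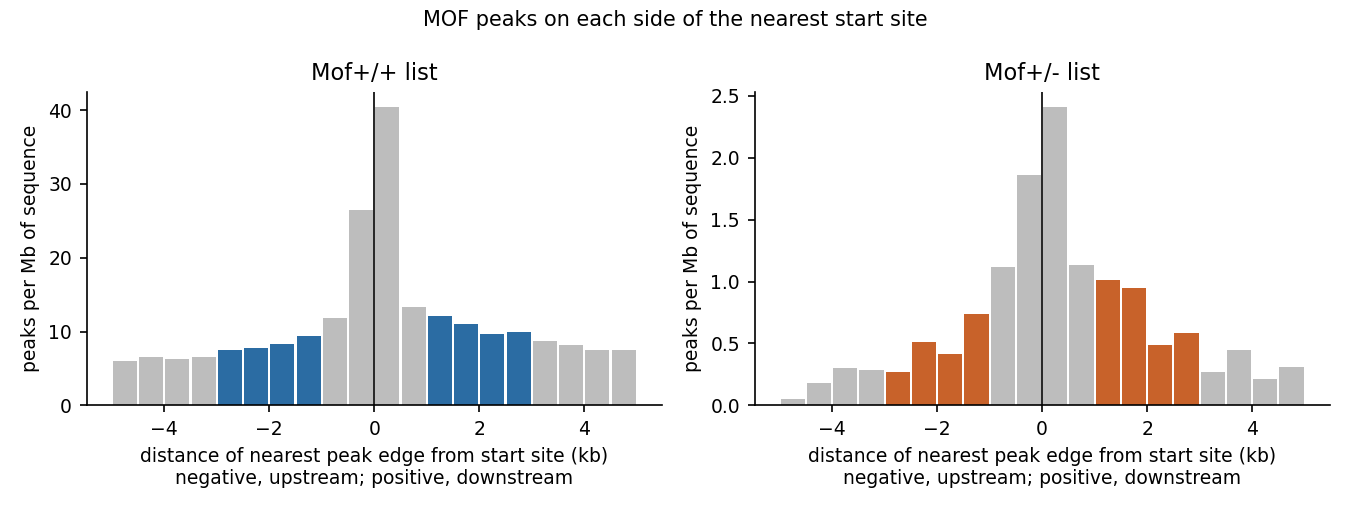
Peaks per Mb of available sequence (vertical axis) in 500 bp steps of distance between the nearest peak edge and the start site (horizontal axis, kb), upstream to the left and downstream to the right, in the Mof+/+ list (left) and the Mof+/- list (right). Flank peaks are coloured and other peaks grey, and peaks over the start itself are not drawn. Downstream bars of the Mof+/+ flank lie between 9.67 and 12.1, above the upstream bars at 7.44 to 9.36.

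The sides had the same median fold enrichment. Median −log10 p was 4.8 upstream and 5.1 downstream for Mof+/+ flank peaks, and 6.9 and 7.5 for Mof+/- ones, with interquartile ranges that overlap. Upstream and downstream Mof+/+ flank peaks both had a median fold enrichment of 3.10, with widths of 487 and 498 bp, and both sides of the Mof+/- list stood at 4.29, with widths of 454 and 488.5 bp. Downstream peaks lie on the gene's own side of the start, and so within it unless it is short. Of downstream summits, 78.3% (75.9 to 80.4) of Mof+/+ and 76.1% (66.4 to 83.6) of Mof+/- peaks lay within the gene whose start was nearest. Upstream summits also lay within that gene, whose other transcripts can start farther out, in 34.8% (31.8 to 37.9) and 19.6% (11.3 to 31.8).

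Introns were the main location of flank summits. Among Mof+/+ summits 59.6% (57.6 to 61.6) were intronic, 23.5% (21.7 to 25.3) intergenic, 6.26% in untranslated regions, 5.81% in noncoding exons and 4.86% in coding sequence. Among Mof+/- summits 40.5% (33.0 to 48.6) were intronic, 32.4% (25.4 to 40.3) intergenic, 12.8% (8.38 to 19.2) in untranslated regions, 7.43% in noncoding exons and 6.76% in coding sequence. The nearest start belonged to a protein-coding gene for 71.5% (69.5 to 73.3) of Mof+/+ and 68.2% (60.4 to 75.2) of Mof+/- members.

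Most flank peaks of the full Mof+/+ list accompanied another peak within 1000 bp of the same start. A separate start-site peak, that is another peak of the same list within 1000 bp of the same start, was present for 1311 of 2221 Mof+/+ members (59.0%, 57.0 to 61.1) and 59 of 148 Mof+/- members (39.9%, 32.3 to 47.9). When only the 712 Mof+/+ peaks of lowest p-value were kept, 26 were flank peaks and the share was 3.85%, below the Mof+/- share. Among the 1196 Mof+/+ flank peaks at least as strong as the weakest Mof+/- peak, the share was 53.2%, above the Mof+/- share. The 712 peaks differ from the full list in both number and strength, and the cause of the change was not tested. Over all 125891 annotated starts, 29.2% had a Mof+/+ peak within 1000 bp and 0.827% a Mof+/- peak. Peaks between 3000 and 5000 bp from a start had such a companion in 53.9% (51.2 to 56.5) and 36.7% (24.7 to 50.7), with intervals that overlap those of the flank in the Mof+/- list and reach close to them in the Mof+/+ list. The start base itself was covered for 39.2% (37.2 to 41.2) of Mof+/+ and 13.5% (8.92 to 20.0) of Mof+/- members. When peaks within 1000 bp of each other were merged first, 39.3% of Mof+/+ and 19.4% of Mof+/- flank peaks had a start-site peak, since close companions were joined to it. Upstream and downstream Mof+/+ members had a start-site peak in 58.3% (55.1 to 61.4) and 59.6% (56.9 to 62.2).

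The start-site peak was usually the stronger of the pair. Among Mof+/+ pairs its median fold enrichment was 4.20 (3.42 to 5.09) against 3.10 for the flank peak beside it, and it was stronger in 980 of 1311 pairs (74.8%), weaker in 303 (23.1%) and equal in 28. The edges were a median of 979 bp apart (557 to 1662), and 664 of the pairs lay within 1000 bp of each other. Mof+/- start-site peaks had a median of 4.95 (4.15 to 5.82) against 4.29, were stronger in 37 of 59 pairs and weaker in 20, and lay 853 bp away (438 to 1362). Flank peaks with and without a start-site peak had the same median fold enrichment, 3.10 for Mof+/+ and 4.29 for Mof+/- peaks.

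**Figure D3:**
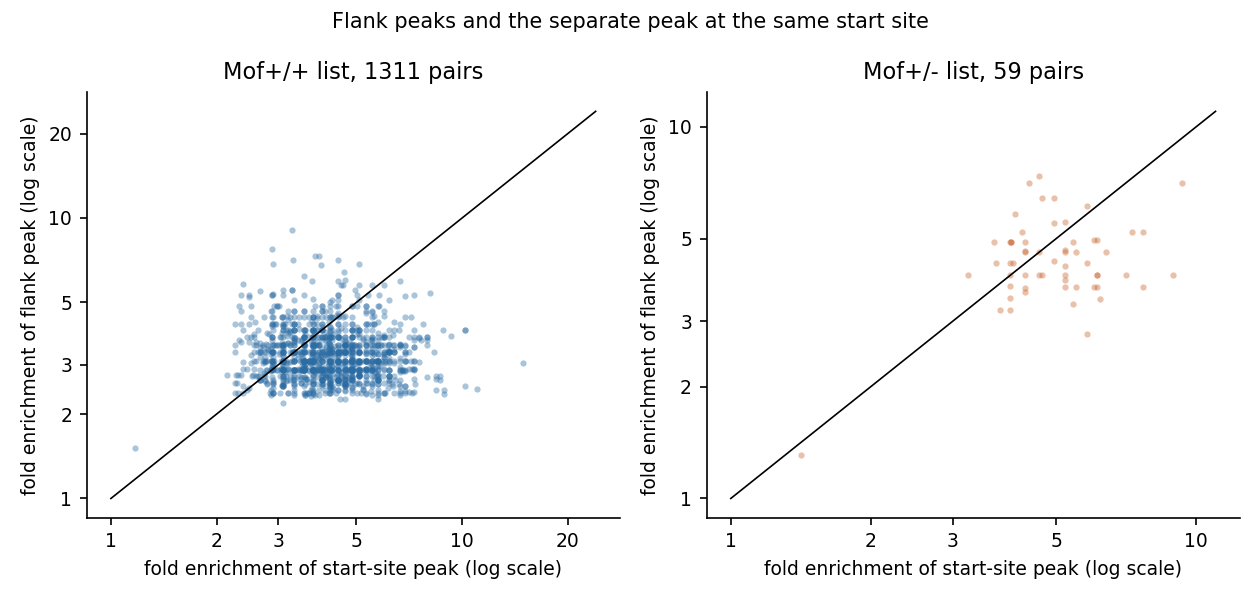
Fold enrichment of a flank peak (vertical axis, log scale) against that of the separate start-site peak at the same start (horizontal axis, log scale), one point per pair, for 1311 Mof+/+ pairs (left) and 59 Mof+/- pairs (right). The line marks equal values. In the Mof+/+ list 980 points lie below it, where the start-site peak is stronger, and 303 above it.

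Whether the start carried a peak went with its CpG content in the Mof+/+ list. CpG content was taken as the number of CpG over that expected from the base composition, here from 500 bp before to 500 bp after the start. The median ratio was 0.530 (0.248 to 0.777) for starts with a separate Mof+/+ peak and 0.247 (0.181 to 0.351) for those without. Among Mof+/- members the medians were closer, 0.690 (0.563 to 0.765) and 0.615 (0.273 to 0.804). Under the flank peaks themselves, the ratio was 0.226 with and 0.253 without a start-site peak in the Mof+/+ list.

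The sequence under flank peaks was CpG-poor in the Mof+/+ list. In 300 bp centred on the summit, the median CpG ratio was 0.234 (0.130 to 0.370) with a GC content of 49.0%, against 0.709 (0.413 to 0.890) and 60.3% at start-site peaks. Distal peaks, at 0.222 and 48.7%, resembled the flank. Mof+/- flank peaks had a ratio of 0.457 (0.277 to 0.695), between the 0.694 of Mof+/- start-site peaks and the Mof+/+ flank value. Windows with at least 50% GC and a ratio of at least 0.6, the usual limits of a CpG island, made up 5.67% (4.79 to 6.71) of Mof+/+ flank peaks and 57.5% (56.6 to 58.5) of Mof+/+ start-site peaks. Of the Mof+/- peaks, 18.2% (12.9 to 25.2) at the flank and 43.0% (38.3 to 48.0) at start sites were such windows. The chromatin was cut partly with CviKI-1, an enzyme that cuts at RGCY, where R stands for a purine and Y for a pyrimidine, and a window held a median of 7 such sites at Mof+/+ flank peaks, 8 at start-site peaks and 7 at distal peaks.

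Short words recognised by common transcription factors followed the same division. The words were searched on both strands of the 300 bp window, overlaps between words were not removed, and a match is a description of the sequence and not a bound site. GGGCGG, the GC box of the Sp and KLF factors, was in 10.6% (9.41 to 12.0) of Mof+/+ flank windows, in 43.5% of start-site windows and in 28.1% of all Mof+/+ windows. The ETS word CCGGAAG was in 2.52% (1.95 to 3.26) of flank windows, 9.73% of start-site windows and 6.48% of all. Words without CpG had the opposite order. The AP-1 word TGAGTCA was in 5.72% (4.83 to 6.76) of flank windows against 2.97% of start-site windows and 4.27% of all, and the RUNX word TGTGGTT in 7.52% (6.49 to 8.69) against 4.28% and 6.28%. AGGTCA, the core word of nuclear receptors such as PPARG, was in 20.1% (18.5 to 21.8), against 13.8% and 16.4%. The E-box CACGTG was in 5.67% against 6.67% and 6.10%, and the C/EBP word TTGCGCAA in 0 of 2221 flank windows, with an upper Wilson limit of 0.173%, against 0.174% and 0.138%. The GC box, ETS, AP-1, RUNX and nuclear receptor words were in 8.15, 2.4, 5.98, 9.23 and 19.5% of distal Mof+/+ windows. These shares lay nearer to the flank than to the start-site values, so the order was not particular to the flank. Of the Mof+/- members, 28 of 148 windows (18.9%, 13.4 to 26.0) had the GC box, 19 (12.8%) the nuclear receptor word, 6 the ETS, 5 the RUNX, 3 the AP-1 and 8 the E-box word. Over all Mof+/- windows the GC box was in 24.7%, the nuclear receptor word in 10.7%, the ETS word in 3.79%, the RUNX word in 3.23%, the AP-1 word in 2.67% and the E-box in 4.63%.

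The lists overlapped very unequally. Of Mof+/+ flank peaks, 61 of 2221 (2.75%, 2.14 to 3.51) shared at least 1 bp with a Mof+/- peak, near the 2.44% of all Mof+/+ peaks. Of Mof+/- flank peaks, 125 of 148 (84.5%, 77.8 to 89.4) overlapped a Mof+/+ peak, near the 84.7% of all Mof+/- peaks. The Mof+/+ flank peaks that overlapped were stronger, with a median fold enrichment of 3.84 (3.02 to 5.09) against 3.10 (2.86 to 3.54), and wider, at 1383 bp against 487 bp. Their CpG ratio was 0.601 (0.379 to 0.784) against 0.230 (0.128 to 0.361), and 16 of 61 (26.2%, 16.8 to 38.4) were CpG-rich by the limits above against 5.09% (4.24 to 6.10) of the others. Against the strongest 712 Mof+/+ peaks by p-value, as many as the Mof+/- list held, 28.4% of Mof+/- flank peaks overlapped, and of those 712 peaks 26 (3.65%) were flank peaks, 53.8% of which overlapped a Mof+/- peak. Strength, width and CpG content moved together, and their separate parts were not tested.

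About as many Mof+/- flank peaks lay on a wider Mof+/+ peak of the start-site class as on a Mof+/+ flank peak or on none. Of the 148, 73 (49.3%, 41.4 to 57.3) overlapped a Mof+/+ start-site peak, 51 a Mof+/+ flank peak but no start-site peak, 1 a distal peak only and 23 (15.5%, 10.6 to 22.2) no Mof+/+ peak. The 73 start-site pairs set a Mof+/- peak of 492 bp (346 to 878) against a Mof+/+ peak of 4353 bp (2776 to 6647). The Mof+/+ peak was the wider in all 73 and covered the whole Mof+/- peak in 61. Fold enrichment was 4.60 (3.99 to 4.91) in the Mof+/- and 5.53 (3.96 to 6.86) in the Mof+/+ peak, and the summits were 824 bp apart (390 to 1992). The nearest edge of these broad Mof+/+ peaks was within 1000 bp of a start. When distance was taken from the summit and not the nearest edge, flank peaks were 13.1% of the Mof+/+ and 24.7% of the Mof+/- list. The part of peak width in these shares was not tested.

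The same was seen from the start site. Of the 89 Mof+/- members without a Mof+/- peak at their start, 62 (69.7%, 59.5 to 78.2) had a Mof+/+ peak there. Of all 148 members, 58 had a start-site peak in both lists, 1 in the Mof+/- list only, 62 in the Mof+/+ list only and 27 in neither. For 69 members (46.6%, 38.8 to 54.6), the Mof+/+ peak within 1000 bp of that start was itself overlapped by the Mof+/- flank peak. Among the 23 members that overlapped no Mof+/+ peak, 13 had a Mof+/+ peak at the start nearby. For Mof+/+ members the reverse was rare. A Mof+/- start-site peak was present for 86 of 2221 (3.87%, 3.15 to 4.76), and 1 of the 910 members without a Mof+/+ start-site peak had one.

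Where a flank peak was called at one place in both lists, there were 52 pairs, of 52 Mof+/- and 50 Mof+/+ peaks. The summits were a median of 334 bp apart (143 to 557), 51 of the pairs lay on the same side of the start, and the Mof+/+ peak was the wider in 44, at 1209 bp (785 to 1908) against 533 bp (384 to 841). Fold enrichment was 4.33 (3.92 to 4.91) in the Mof+/- peaks and 3.62 (2.90 to 4.87) in the Mof+/+ peaks, higher in the Mof+/- peak in 37 of 52, on the separate scales of the 2 inputs. The Mof+/+ peaks rested on more fragments, 18 (15.5 to 24.5) against 14 (13 to 16). Fragment numbers are not on one scale either, since backgrounds started at 3.52 fragments for Mof+/+ and at 2.26 for Mof+/- peaks. In 2 pairs, near Gm11168 and Gm21738, the fold enrichment was 1.18 and 1.51 in the Mof+/+ and 1.45 and 1.31 in the Mof+/- list. Each list held 2 flank peaks whose input background was over 10 times its lowest, or could not be solved, and these were those peaks.

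**Figure D4:**
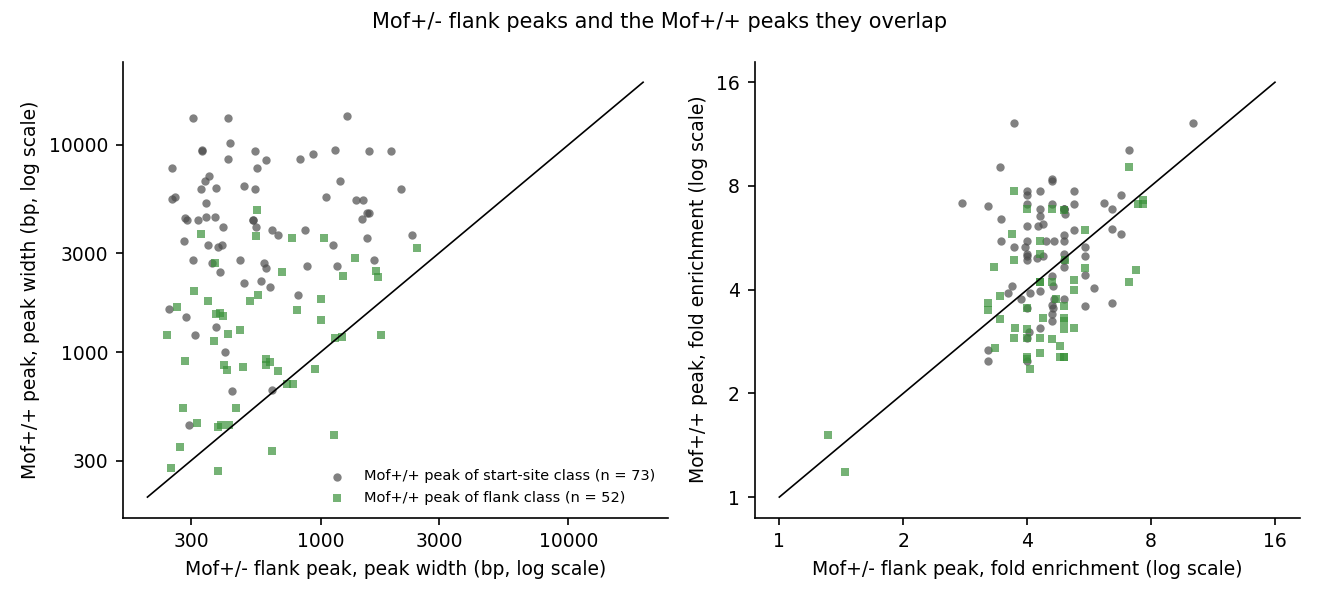
Width in bp (left) and fold enrichment over input (right) of Mof+/- flank peaks (horizontal axes, log scale) and of the Mof+/+ peaks they overlapped (vertical axes, log scale). Circles are 73 pairs with a Mof+/+ start-site peak, squares 52 pairs with a Mof+/+ flank peak, and lines mark equal values. The Mof+/+ peak is the wider in all 73 start-site pairs and in 44 of the 52 flank pairs, and the 2 squares under a fold enrichment of 2 are Gm11168 and Gm21738.

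Foxl2os, Barx1, Mecom and 9530018H14Rik were among the 5 strongest flank peaks of their side in both lists. Upstream in the Mof+/+ list, the highest was at Foxl2os, the antisense transcript of the forkhead gene Foxl2 (chr9:98956683-98958978, fold enrichment 9.07, 40 fragments). Scml4, a Polycomb-related gene, and Barx1, a homeobox gene, followed at 7.08 each, and then the noncoding gene Gm15323 and Mecom, a zinc finger transcription factor, at 6.19 each. Downstream, the highest was in an intron of Kdm6b, a histone demethylase (chr11:69408862-69412490, 7.74, 34 fragments). Otx1, a homeobox gene, and 9530018H14Rik, a transcript not yet classified by the annotation, followed at 7.30, and Mecom again and Ubxn11 at 7.08. Of these 10 peaks, Scml4, Gm15323 and Ubxn11 had no overlapping Mof+/- peak.

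The highest Mof+/- flank peak was downstream at Hmx2, a homeobox gene of the inner ear and brain (chr7:131555767-131557876, fold enrichment 10.1, 32 fragments). Its summit lay in an untranslated region of Hmx2. The next downstream were 9530018H14Rik at 7.67, Mecom at 7.42, Gm47071 at 7.36 with its summit in an intron of the homeobox gene Pitx1, and Sp9, a zinc finger transcription factor, at 7.05. Upstream the highest were Barx1 at 7.67, Foxc1, a forkhead gene, and Foxl2os at 7.05 each, and the noncoding gene Gm27605 and the homeobox gene Hoxd10 at 6.44 each. All 10 overlapped a Mof+/+ peak.

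Of the pairs of flank peaks at the same place, the 6 of highest Mof+/- fold enrichment are given here, a choice that favours high Mof+/- values. At Barx1 the fold enrichment was 7.08 over 31 fragments for Mof+/+ and 7.67 over 24 for Mof+/-, with neither list calling a peak at the start. At 9530018H14Rik it was 7.30 over 32 and 7.67 over 24, at Mecom 7.08 over 31 and 7.42 over 29, and at Gm47071 4.57 over 29 and 7.36 over 23. Foxc1 had 4.20 over 18 and 7.05 over 22, and Foxl2os 9.07 over 40 and 7.05 over 22. The Mof+/+ peak rested on more fragments in 5 of the 6, though fragment numbers of the lists are not on one scale. Ranked by the Mof+/+ value, Kdm6b (7.74 over 34 fragments for Mof+/+ and 3.71 over 14 for Mof+/-) came next after Foxl2os.

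Single loci showed how the same stretch was divided. At Hmx2 the Mof+/+ list had 1 start-site peak with a fold enrichment of 12.2, from 1395 bp before to 4738 bp after the start. The Mof+/- list had 2 separate flank peaks over that stretch, of 3.71 (1055 to 1383 bp) and 10.1 (1706 to 3815 bp), and no peak over the start. At Kdm6b the Mof+/+ peak ran from 1185 to 4813 bp downstream and the Mof+/- peak, at 3.71, from 2951 to 3498 bp. The start-site peak of Kdm6b, at 2.88, was in the Mof+/+ list alone.

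**Figure D5:**
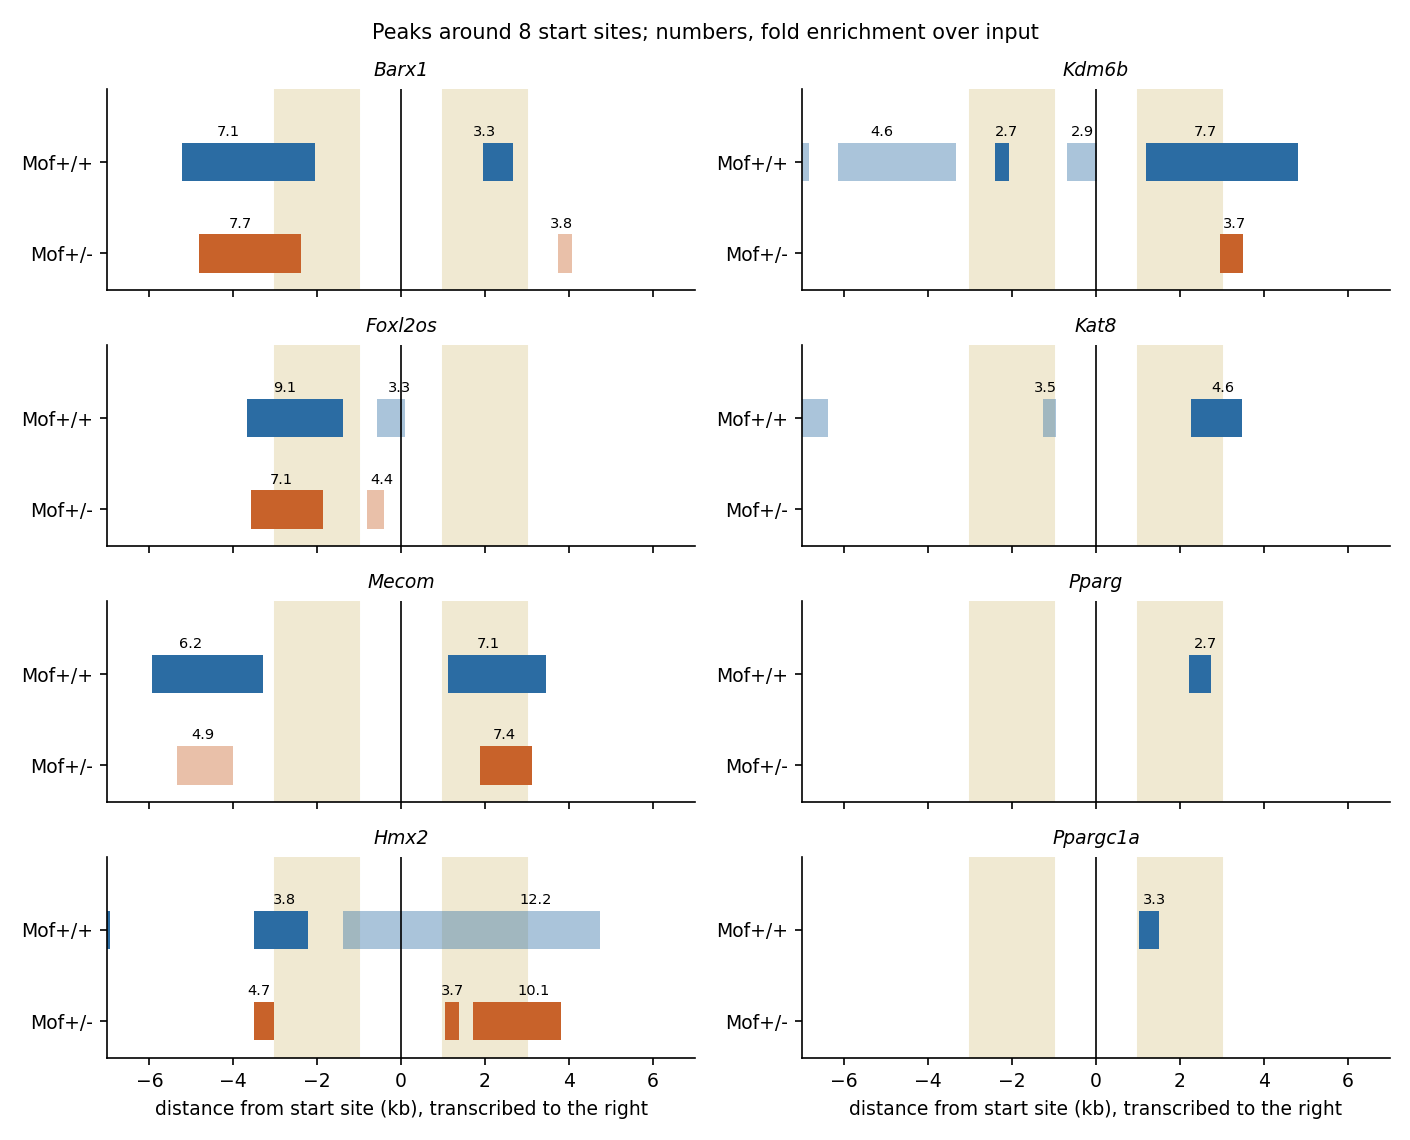
Peaks of the Mof+/+ (blue) and Mof+/- (orange) lists within 7 kb of 8 start sites (horizontal axis, distance in kb, transcription to the right), with fold enrichment over input above each summit. Full colour marks peaks in the flank class and pale colour the other classes, each by its own nearest start, and the shaded bands are the flank distances. At Barx1, Foxl2os and Mecom both lists have a strong flank peak, while Kat8, Pparg and Ppargc1a have one in the Mof+/+ list only.

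Of 5 genes the study follows, Kat8, Mef2c, Ppargc1a and Pparg had a flank peak, each downstream with an intronic summit and in the Mof+/+ list alone. Kat8 itself, which encodes MOF, had a peak 2258 bp downstream (chr7:127922046-127923256) with a fold enrichment of 4.65 over 20 fragments, above the upper quartile of Mof+/+ flank peaks, and a separate start-site peak of 3.54. Mef2c, a transcription factor gene of muscle and fat, had one 1747 bp downstream (chr13:83531885-83532432) at 3.10 over 13 fragments, with a start-site peak of 2.88. Ppargc1a, the coactivator PGC-1alpha, had a peak 1014 bp downstream of one of its starts (chr5:51552366-51552857) at 3.29 over 16 fragments, just inside the distance limit, and no peak at that start. Pparg, the master regulator of fat cells, had a peak 2223 bp downstream of one of its starts (chr6:115424289-115424799) at 2.65 over 11 fragments, below the lower quartile, also with no peak at that start. The −log10 p of the Pparg and Mef2c peaks, 3.52 and 4.70, was under the 4.72 of the weakest Mof+/- peak. Slc2a4, the glucose transporter GLUT4, had no flank peak in either list.

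Genes of lipid handling in fat cells were among the Mof+/+ members. In all, 1235 of 20807 protein-coding genes (5.94%) were nearest to a Mof+/+ flank peak and 86 (0.413%) to a Mof+/- flank peak. Of 30 genes of adipocyte lipid handling, 12 (40.0%, 24.6 to 57.7) had a Mof+/+ flank peak. None had a Mof+/- one, which allows a share of up to 11.4% and cannot be told apart from the 0.413% of all genes. By peaks, these genes held 0.765% (0.478 to 1.22) of Mof+/+ flank, 0.275% (0.193 to 0.393) of start-site and 0.294% (0.189 to 0.459) of distal peaks, with 2 flank peaks each at 5 of the 12 genes. The 17 peaks at these 12 genes had fold enrichments from 2.39 to 4.20, 13 were downstream, and 12 had a separate start-site peak. Of all Mof+/+ flank peaks 57.8% were downstream and 59.0% had a separate start-site peak. By p-value 7 of the 17 were at least as strong as the weakest Mof+/- peak and 10 were weaker. The strongest were at Plin1, the coat protein of the lipid droplet (4.20, 1166 bp downstream), Pnpla2, the triglyceride lipase ATGL (3.98, 1165 bp downstream), Adipoq, the hormone adiponectin (3.62, 1958 bp downstream), and the perilipin gene Plin4 (3.54, 1220 bp downstream). Fabp4, the fatty acid carrier of fat cells, had 2 downstream peaks of 3.54 and 2.65. Acaca, Cd36, Cfd, Elovl6, Fasn, Lpin1 and Scd2, which make or take up lipid or, in the case of Cfd, encode adipsin, were the rest. Adipoq and Pnpla2 had peaks on both sides.

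Regulators of fat cell identity and of insulin action had fewer by count, with intervals that overlap that of the lipid genes. Of 30 genes of PPARG and adipocyte transcription, 6 (20.0%, 9.50 to 37.3) had a Mof+/+ flank peak, with Mef2d (4.42), Srebf1, a regulator of lipid synthesis (3.54), and Stat5b (2.56) beside Ppargc1a, Mef2c and Pparg, and 0 had a Mof+/- one. Of 30 genes of insulin signalling and glucose uptake, 6 (20.0%) had a Mof+/+ flank peak. These were Foxo3, a target of insulin signalling (4.65), Ptpn1, a phosphatase of the insulin receptor (4.20), Tbc1d1 (3.19), Cbl (2.89), Pik3r1 and Gsk3b. Rictor, a subunit of the kinase complex mTORC2, was the one Mof+/- member among them (4.22, 1927 bp upstream). Of 16 genes of MOF complexes and other acetyltransferases, Kat8, Kat2b (3.32 and 2.77) and Msl2 (2.67) had Mof+/+ flank peaks and none had a Mof+/- one. For 3 of 16 genes the interval is 6.59 to 43.0%, and the lists were drawn up with earlier results of these data known. By peaks, the flank class did not stand out for these 3 lists. The transcription list held 0.270% of Mof+/+ flank, 0.339% of start-site and 0.310% of distal peaks, the insulin list 0.315, 0.330 and 0.310%, and the MOF complexes 0.180, 0.193 and 0.139%, with intervals that overlap within each list.

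Of the gene lists, the homeobox list, which was also the longest, held the most Mof+/- flank peaks. Of 98 homeobox genes, 20 (20.4%, 13.6 to 29.4) were nearest to a Mof+/- flank peak and 29 (29.6%, 21.5 to 39.3) to a Mof+/+ one. Counted by peaks, 26 of the 148 Mof+/- members (17.6%, 12.3 to 24.5) lay at a homeobox gene of the list. So did 12.9% (9.96 to 16.6) of Mof+/- start-site and 13.6% (9.24 to 19.6) of Mof+/- distal peaks. The intervals of the 3 classes overlap. Of the 26, 25 overlapped a Mof+/+ peak and 12 had a Mof+/- start-site peak, against 84.5 and 39.9% of all Mof+/- flank peaks. The strongest of the 26 were at Hmx2 (10.1), Evx2 (6.75), Hoxd10 (6.44) and Hoxb9 (5.52). The list does not hold every homeobox gene, and Barx1 (7.67), named above, was not in it. The listed homeobox genes held 41 of 2221 Mof+/+ members (1.85%, 1.36 to 2.50). They held 0.871% (0.713 to 1.06) of Mof+/+ start-site and 0.542% (0.390 to 0.753) of distal peaks, with intervals that do not overlap that of the flank. Among these members were Otx1 (7.30), Evx2 (4.87) and Hmx2 (3.76). Among Mof+/+ members that overlapped a Mof+/- peak the share was 14 of 61 (23.0%, 14.2 to 34.9), and among the others 27 of 2160 (1.25%, 0.861 to 1.81).

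Marker genes of other cell types were also nearest to Mof+/+ flank peaks. Of 20 B cell genes, 8 (40.0%, 21.9 to 61.3) had a Mof+/+ flank peak, with Bach2 (3.97), Cd72 (3.76) and Cd79b (3.67) the strongest, and of 20 T cell genes 7 (35.0%, 18.1 to 56.7), with Cd2 (4.20) the strongest and Cd3d (3.54) among the rest. Of the 24 peaks at these 15 genes, 21 had a separate start-site peak, against 59.0% of all Mof+/+ flank peaks. By peaks, B cell genes held 0.540% (0.309 to 0.942) of Mof+/+ flank, 0.294% (0.208 to 0.414) of start-site and 0.620% (0.455 to 0.843) of distal peaks. T cell genes held 0.540% (0.309 to 0.942), 0.193% (0.126 to 0.294) and 0.341% (0.225 to 0.516). Of 20 endothelial genes 3 had one, Pecam1 (5.53 upstream and 3.31 downstream), Flt1 (3.50) and Sox17 (2.88), of 20 fibroblast and progenitor genes 3, Tcf21 (3.32), Dpp4 (2.87) and Ly6a (2.51), and of 20 macrophage genes 1, Spi1 (3.76). The intervals of these counts include the 5.94% of all protein-coding genes. Elavl3 (3.76) and Gad1 (3.10 and 2.59) were the 2 with one among the 17 neuron genes found on these chromosomes, also with an interval that includes 5.94%, and none of 15 mesothelial or 20 hepatocyte genes had a Mof+/+ flank peak. The Mof+/- members were Pax5 of the B cell genes (4.66 and 4.45, both upstream), Sox17 (4.60) and Flt1 (3.21) of the endothelial genes, Pdgfra (3.71) of the fibroblast and progenitor genes and Wt1 (5.52) of the mesothelial genes, and 0 of the T cell, macrophage, neuron and hepatocyte genes. By p-value 5 of the 12 B cell and 7 of the 12 T cell peaks of the Mof+/+ list were weaker than any Mof+/- peak, and at the 0.413% of all genes lists of this length allow no statement from a count of 0. Genes of fat cells and of lymphocytes both had flank peaks in the Mof+/+ list, and the part of cell composition in this was not tested.

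Flank peaks of the Mof+/+ list were nearest to 1776 genes, 346 of which had more than 1 and 194 had peaks on both sides. The most, 6 peaks of 2.56 to 3.54 around 5 starts, were at Foxp1, a forkhead transcription factor. Next were, with 5 each, Cd2, Itm2b, Arhgef10, Fnbp1, Ms4a4b and Irf8, named here after their values were seen. Mof+/- flank peaks were nearest to 127 genes, 19 of which had more than 1 and 7 had peaks on both sides, with 3 peaks each at Hmx2 and Lhx9, also a homeobox gene. The lists had 64 genes in common, which were 3.60% of the Mof+/+ and 50.4% of the Mof+/- genes. A gene counts here only when it had a peak of the flank class in both lists. With Mof+/+ peaks of any class, 84.5% of Mof+/- flank peaks overlapped one and 81.1% had one within 1000 bp of their start.

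The distance limits cut through a continuous distribution. The 2 Mof+/+ peaks just inside the near limit, both at 1001 bp, had fold enrichments of 2.90 and 3.25, and the 2 just outside, at 998 and 1000 bp, 2.59 and 3.48. At the far limit the 2 inside, both at 2997 bp, had 2.71 and 3.10, and the 2 outside, both at 3001 bp, 2.90 each. Mof+/- peaks inside the near limit, at Hoxb9 (1019 bp) and Lmx1a (1036 bp), had 5.52 and 3.92, and those outside, at Bad (996 bp) and Barhl1 (999 bp), 4.60 and 3.99. Inside the far limit were Irx5 (2985 bp, 4.91) and Gm27605 (2994 bp, 6.44), and outside it Gata4 (3008 bp, 5.21) and Mat2a (3045 bp, 3.99).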

How the data were processed

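MOF ChIP-seq of visceral white adipose tissue from Mof+/+ and Mof+/- mice was analysed as 1 peak list per genotype. Per the study's methods, the authors mapped reads to GRCm38 with snakePipes, used MACS2 version 2.1.1.20160309.3 with input DNA as control and set the q-value limit to 0.1. A later joining of peaks of a cell type within 1000 bp is also described. The deposited lists hold peaks closer than that, so they precede such a step or did not undergo it. How the 2 libraries of a genotype were combined for peak calling is not given in the sources used here. The deposited fold enrichment is the caller's ratio of fragments over the summit to the input background, with 1 added to each. The −log10 p and −log10 q values, as deposited, belong to the same summit. The deposited integer score restates the q-value and was not used, which left 1 value column per list unused. The lists were taken as they stood, with neighbouring peaks unmerged, and the list whose name lacks the word for heterozygous was taken as Mof+/+.

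Peaks of chromosomes 1 to 19 were set against 125891 transcript starts of 20807 protein-coding and all other genes of GENCODE mouse release 21 with python 3.11.15, numpy 2.4.6, pandas 2.3.3, scipy 1.17.1 and pysam 0.24.0. Coordinates count from 1 and the sequence is GRCm38 patch 6 from RefSeq. The assignment of class and side was tested on simulated peaks. A peak counted as separate start-site peak when its nearest edge lay within 1000 bp of the same start, and as overlapping at 1 bp. Fragments were solved as whole numbers that return both the deposited ratio and its Poisson p-value within 0.001 on the −log10 scale. No test between genotypes was possible with 1 list each, and none was run over peaks or genes, which are not replicates.

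Genes named are the 5 flank peaks of highest fold enrichment on each side of each list, the 5 pairs of flank peaks of highest Mof+/- fold enrichment, with a sixth at a tie and Kdm6b added after its values were seen, the genes the study follows, up to 4 peaks for each of 13 gene lists, and the peaks at the limits. The other lipid genes, the loci of high input background, the genes with most flank peaks and those on X and Y were named after their values were seen. Of 358 listed genes, 355 were found on these chromosomes. Members and lists were chosen with earlier results of these data known. Alternatives were other start sites, the summit in place of the edge, stricter thresholds, merging, the Mof+/+ list reduced in size, and other meanings of overlap and of a start-site peak. Signal tracks and H3 libraries were not used here. The series' design text counts 3 Mof+/- animals and the labels 2. The values of some genes in the gene lists are not reported here.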

Additional observations from a re-analysis of the deposited data

Results flagged for a closer look

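The lists also held peaks outside chromosomes 1 to 19, which enter no comparison above. There were 194 in the Mof+/+ list, 174 of them on chromosomes X and Y and 20 on unplaced scaffolds, and 19 in the Mof+/- list, 4 of them on X and Y and 15 on scaffolds. By the same distance rule, 8 Mof+/+ peaks on X and Y flanked a start site, at Kdm6a, Tmem255a, Elf4, C430049B03Rik, Sox3, Arhgap4, Tbl1x and Tlr7, with fold enrichments from 2.88 to 3.98, 3 upstream and 5 downstream. None of the 4 Mof+/- peaks there did.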

How the results depend on the processing

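No paired analysis was possible because the lists, 1 per genotype, carry no values per library. Over the alternatives 50 values kept within their interval, or within 1.5 times for counts, and 42 did not. The 50 include Mof+/- values that the alternatives changing only the Mof+/+ list could not move. No upstream share rose to 48.7%, the share of sequence upstream of all transcript starts. That reference was not recomputed for the other start sites. In the order flank share, share with a start-site peak and share overlapping a Mof+/- peak, the Mof+/+ values of 11.3, 59.0 and 2.75% became 8.27, 73.1 and 3.71% with protein-coding starts and 13.1, 56.1 and 4.23% from summits, and the first and second 9.95 and 64.4% with 1 start per gene. A q-value of at most 0.01 left 1427 Mof+/+ flank peaks (9.59%, start-site peak 54.5%, median fold enrichment 3.48), the Mof+/- p-value limit 1196 (8.91, 53.2 and 4.18% overlapping, median 3.54), merging 1369 (8.66%, 45.0% upstream, 39.3% with a start-site peak), and the reduced list 26 (3.65%, 34.6% upstream, 3.85% with a start-site peak, 53.8% overlapping, median 6.42). The median was 3.19 with 1 start per gene and 3.12 from summits. A peak over the start base accompanied 39.2% of Mof+/+ and 13.5% of Mof+/- members, and one at any start of the gene 76.0 and 50.7%. Overlap of Mof+/+ members was 1.49% when 0.5 of the peak had to be covered and 1.98% by summit. Mof+/- flank peaks were 24.7% of the list from summits, and merging left 98 (17.3%), 19.4% with a start-site peak. They overlapped 77.3% at the stricter q-value, 76.4% at the p-value limit and 28.4% against the reduced list. Stricter lists hold fewer peaks by construction; the cause of the other changes was not tested. With a median of 14 to 15 fragments per member, a single peak has low precision.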
